A study of Canis lupus familiaris with 4 samples.

Results

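Pyoderma, a bacterial infection of the skin, was represented by 2 of the 4 canine skin biopsies in this series, chosen by the disease status that the submitters gave each sample. The 2 pyoderma biopsies were set against the other 2 lesions as one group, 1 of erythema multiforme (EM) and 1 of cell poor vasculitis (CPV). Pyoderma case 1 was a neutered male Golden Retriever aged 7 years, and pyoderma case 2 was a neutered male German Shepherd aged 9 years. The EM biopsy was from a spayed female Boxer aged 5 years and the CPV biopsy from a spayed female Pomeranian aged 4 years. Sex and the order of age divided the 4 dogs in the same way as the diagnosis did, so that their parts in any difference given here cannot be told apart from that of pyoderma, and each dog was of its own breed. The labels class both pyoderma and CPV as controls and give no treatment for any dog. Healthy skin was not analysed here, so that every value is a comparison among inflamed lesions. All 4 were archival, formalin-fixed biopsies, and each came from 1 dog.

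In pyoderma, bacteria, most often staphylococci in dogs, grow in the epidermis and hair follicles. Keratinocytes and resident immune cells sense them and release IL1B and TNF, which induce chemokines such as CXCL8 that draw neutrophils out of the blood, and IL-17 made by lymphocytes adds to this signal in the epithelium. EM is an attack on keratinocytes by cytotoxic lymphocytes, and cell poor vasculitis is a disease of small vessels with a sparse infiltrate.

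RNA was measured on the NanoString nCounter platform, where each barcoded probe bound to a transcript is counted directly and nothing is amplified, and all 160 targets of a custom panel were used. Counts over all targets summed to between 517282 and 808877 per biopsy, with case 2 the lowest and CPV the highest. The negative control probes gave a background (mean + 2 SD) of 13.0 to 16.3 counts per biopsy, and 147 targets exceeded it in each pyoderma biopsy against 139 in EM and 137 in CPV. A symbol was found for 72 targets, and the other 88 are identified by their RefSeq transcript. Values are given as normalized counts, that is, counts scaled so that the geometric mean of the housekeeping genes *B2M*, *HPRT1* and *RPL13A* is the same in every biopsy. The skin markers *KRT1*, *KRT5*, *KRT14* and *COL1A1* were far above background in all 4 biopsies. In bulk tissue, fewer cells of a type and less RNA per cell cannot be told apart.

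Both pyoderma values lay above both others for 30 of the 160 targets (18.8%) and below both others for 11 (6.88%), while 119 targets overlapped. The targets above included the neutrophil attractant *CXCL8*, the inflammatory cytokines *IL1B*, *TNF* and *IL17A*, the lymphoid chemokines *CCL21* and *CXCL12*, the epithelial chemokine *CCL28* and the mast cell receptor chain *MS4A2*. The targets below included the pigment genes *DCT* and *MC1R*, the cytokine subunit *IL12B* and the chemokine *CX3CL1*. By symbol, 15 of the 30 above and 5 of the 11 below could be named. An exact permutation test of 2 biopsies against 2 cannot give a two-sided p below 0.333, so single targets are described by their values. For the same reason, pairing the biopsies without regard to diagnosis would separate a target, in either direction, with a probability of 0.333. The 41 targets separate here were a smaller share of the 160 than that. Their number is therefore no evidence of a difference between pyoderma and the other lesions, and the genes named are a description.

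The size of this separation varied. The lower pyoderma value was at least 1.5-fold above the higher of EM and CPV for 12 targets and at least 2-fold above it for 4. In the other direction, 2 targets were separated by at least 1.5-fold and 1 by at least 2-fold. The 95% Poisson limits, which cover counting error only, were also separate for 14 of the 30 targets above and 3 of the 11 below. Of the 30 above, 27 exceeded background in both pyoderma biopsies.

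The split depended on the scaling. Housekeeping scaling placed 30 targets above and 11 below, whereas the median of ratios placed 24 above and 21 below, the counts as deposited 25 and 17, scaling without *B2M* 24 and 14, the positive control probes 17 and 21, and edgeR's TMM 22 and 26. Scaling without *HPRT1* placed 36 above and 11 below, and the panel total 41 and 12. The median log2 difference over all targets, pyoderma minus EM and CPV, was 0.12 with housekeeping scaling and ran from −0.12 with TMM to 0.28 with the panel total. Under all 9 scalings, 15 targets lay above and 6 below. The 3 housekeeping genes paired of 5 listed overlapped, with log2 differences of 0.21 for *HPRT1*, −0.04 for *RPL13A* and −0.17 for *B2M*. Because these 3 genes set the scaling, their differences must balance, and the values are no check on it. The targets with a symbol that kept their place included *CCL1*, *CCL21*, *CCL28*, *CXCL8*, *CXCL12*, *HSD11B1*, *IL17A* and *IL1B* above, and *CX3CL1* and *IL12B* below.

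**Figure D1:**
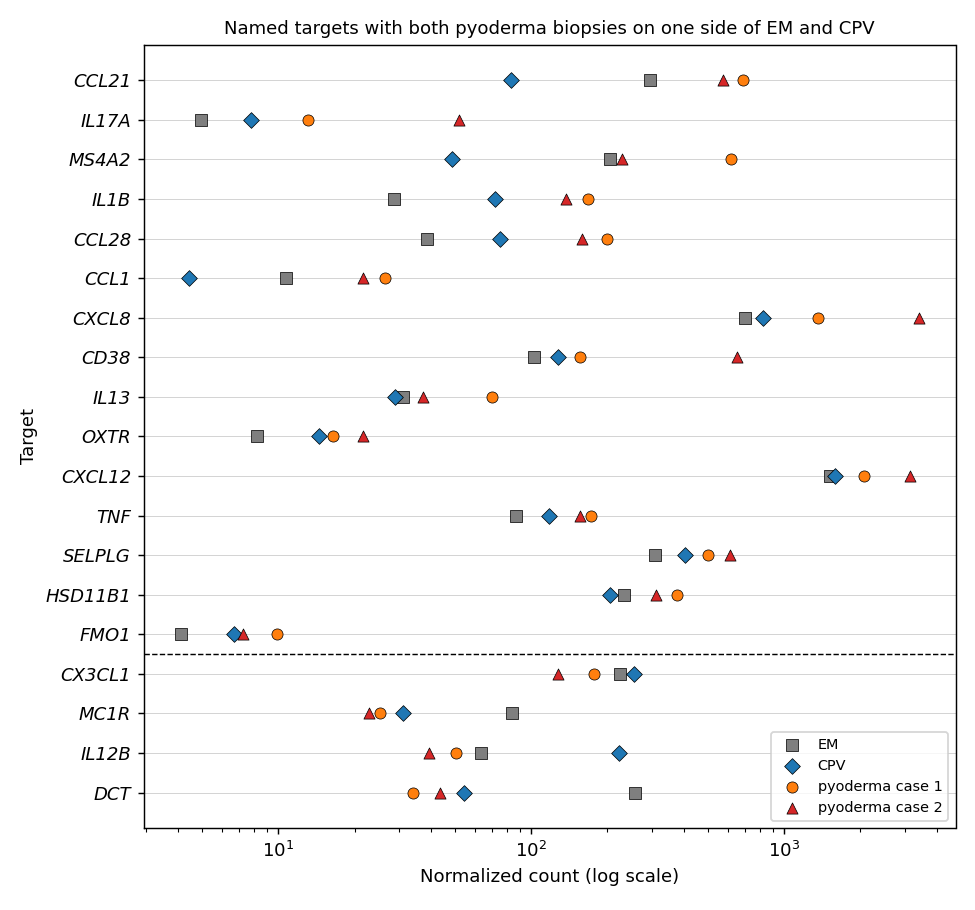
Normalized counts (log scale, 1 symbol per biopsy) of targets with a gene symbol for which both pyoderma biopsies lay on one side of EM and CPV. The 15 targets above the dashed line were higher in both pyoderma biopsies and the 4 below it were lower. *CCL28* and *CCL21* leave wide gaps, whereas *MS4A2* in case 2 nearly meets the EM value.

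Among the ligands and cytokines of neutrophil recruitment, *CXCL8* (NM_001003200.1) reached 697 normalized counts in EM, 825 in CPV, 1364 in pyoderma case 1 and 3396 in case 2. The pyoderma mean was 2380 ± 1437 (SD, n = 2) against 761 ± 90.2 (SD, n = 2), so that the level was above both other lesions in each pyoderma dog while the dogs with pyoderma differed 2.49-fold from each other. The ratio of the means was 3.13, and the log2 difference was 0.85 without case 2 and 2.16 without case 1. The edgeR log2 fold change was 1.65 (SE 0.691, adjusted p = 0.508).

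*IL1B* (NM_001037971.1), a cytokine released early in bacterial infection, was at 28.7 in EM, 72.1 in CPV, 168 in case 1 and 137 in case 2. Here the 2 pyoderma biopsies lay close together, 1.22-fold apart, and the lower of them was 1.91-fold above CPV. The pyoderma mean was 153 ± 21.4 and that of the others 50.4 ± 30.6 (SD, n = 2 each), and the edgeR log2 fold change was 1.60 (SE 0.865, adjusted p = 0.679). The log2 difference of 1.71 was 1.06 without EM and 2.36 without CPV. *TNF* (NM_001003244.4), which acts beside *IL1B*, was at 87.1 in EM, 118 in CPV, 172 in case 1 and 156 in case 2. The pyoderma values were again alike, at 1.10-fold apart, but the gap to CPV was 1.33-fold, and the order held under 8 of the 9 scalings.

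*IL17A* (NM_001165878.1), the lymphocyte cytokine that acts on keratinocytes, was counted 6 times in EM, 7 times in CPV, 12 times in case 1 and 50 times in case 2. The order placed both pyoderma dogs above the others, but only the count of case 2 exceeded background. Its log2 difference of 1.92 became 0.97 without case 2 and 2.87 without case 1.

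Of the list of neutrophil recruitment and IL-17 genes, 7 of 40 were paired with a target, of which 3 lay above and none below, against 18.8% above and 6.88% below over the panel, and the median log2 difference was 0.65 against 0.12 over all targets. No member passed an adjusted p of 0.05 in edgeR, and 2 of the 7 were higher at an unadjusted p under 0.05, against 10 of the 160 targets. The other 4 overlapped. *CCL20*, an epithelial chemokine that attracts IL-17-producing lymphocytes, was at 385 in case 1 but at 160 in case 2, between the 175 of EM and the 142 of CPV. *IL6*, a cytokine of the acute phase, was at 28.5 in case 1, the lowest value, and at 178 in case 2, the highest. *PPBP*, a platelet-derived neutrophil attractant, was at 232 in case 1 and 126 in case 2, with CPV at 192 between them. *CEACAM1*, an adhesion molecule found on neutrophils and epithelium, was at 837 and 1005 in the pyoderma cases and highest in CPV, at 2083. It was the only one of 7 neutrophil markers paired with a target, and neutrophil content was therefore not assessed.

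*CCL21* (NM_001005258.1), which guides CCR7-bearing dendritic cells and lymphocytes into lymphatic vessels, was at 295 in EM, 83.1 in CPV, 689 in case 1 and 575 in case 2. Both pyoderma values lay at least 1.95-fold above EM and were 1.20-fold apart. The ratio of the means was 3.34, the log2 difference was 2.91 without EM and 1.09 without CPV, and the edgeR log2 fold change was 1.74 (SE 0.730, adjusted p = 0.508). *CXCL12*, a stromal chemokine that retains leukocytes bearing CXCR4, was at 1520 in EM, 1592 in CPV, 2066 in case 1 and 3145 in case 2, so that the EM and CPV lesions were nearly equal and both pyoderma lesions higher. *CCL19*, which shares its receptor with *CCL21*, overlapped, at 922 in EM, 443 in CPV, 837 in case 1 and 1153 in case 2. Of the B cell, plasma cell and lymphoid homing list, 6 of 27 were paired, and 2 lay above and none below. Over the panel, 18.8% lay above and 6.88% below. The median log2 difference of the list was 0.67 against 0.12 over all targets. The B cell marker *MS4A1* overlapped, at 57.5 in EM, 79.8 in CPV, 122 in case 1 and 54.8 in case 2.

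*CCL28* (NM_001005257.1), a mucosal and epidermal chemokine, was at 38.6 in EM, 75.4 in CPV, 199 in case 1 and 158 in case 2. The lower pyoderma value was 2.10-fold above CPV, the widest gap among the targets with a symbol. The edgeR log2 fold change was 1.65 (SE 0.838, adjusted p = 0.642). It was the only one of the 6 paired keratinocyte genes, of 24 listed, to lie above, and none lay below. Over the panel, 18.8% lay above and 6.88% below. The skin-homing chemokine *CCL27* did not follow *CCL28*, at 51.7 in EM, 16.6 in CPV, 46.0 in case 1 and 18.6 in case 2. The median log2 difference of the keratinocyte list was −0.09 against 0.12 over all targets.

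In the type 2, eosinophil and mast cell list, 8 of 32 genes were paired, of which 3 lay above and none below, against 18.8% above and 6.88% below over the panel, with a median log2 difference of 0.28 against 0.12. *MS4A2* (NM_001003172.2), the beta chain of the IgE receptor on mast cells, was at 204 in EM, 48.8 in CPV, 615 in case 1 and 228 in case 2. Case 2 was 1.12-fold above EM, and the order held under 5 of the 9 scalings. The log2 difference of 1.89 was 0.87 without CPV and 2.92 without EM, and 1.18 without case 1 and 2.61 without case 2. *KIT*, the stem cell factor receptor of mast cells and melanocytes, overlapped, at 466 in EM, 152 in CPV, 419 in case 1 and 232 in case 2. *CCL1*, a chemokine of CCR8-bearing T cells, was counted 13 times in EM, 4 times in CPV, 24 times in case 1 and 21 times in case 2, and exceeded background in the pyoderma biopsies alone. *IL13*, a cytokine of type 2 lymphocytes, was at 31.2 in EM, 28.8 in CPV, 70.1 in case 1 and 37.2 in case 2, an order held under 6 of the 9 scalings.

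No paired member of the monocyte-attracting chemokines (7 of 15) lay above or below, against 18.8% above and 6.88% below over the panel. The median log2 difference was 0.45 against 0.12 over all targets. *CCL2*, the main attractant of monocytes, was at 1541 in EM, 3267 in CPV, 3522 in case 1 and 2658 in case 2. *CCL7*, a related ligand, was lowest in EM at 25.5 and highest in CPV at 290.4, with 111 and 217 in the pyoderma cases between them. For *CCL5* and *CCL13*, too, both pyoderma values lay between EM and CPV. *CCL4* and *CCL8* were highest in case 2, and *CCL3* was highest in case 1 and lowest in case 2. These 5 had log2 differences from −0.28 for *CCL5* to 0.59 for *CCL4*. Case 2 was the highest under 3 of the 9 scalings for *CCL4* and under all 9 for *CCL8*. For *CCL3*, case 1 was the highest under 5 of the 9 and case 2 the lowest under 6. Of the microbial sensing and acute inflammation list, 2 of 32 were paired, *TNF* and *HIF1A*. *HIF1A*, the oxygen-sensing transcription factor, was at 1854 in EM, 3399 in CPV, 3108 in case 1 and 3138 in case 2, so that the pyoderma dogs were alike and below CPV.

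Among the interferon and cytotoxic genes, 7 of 43 were paired, and none lay above and 1 below. Over the panel, 18.8% lay above and 6.88% below. The median log2 difference of the list was −0.01 against 0.12 over all targets. The member below was *IL12B* (NM_001003292.1), the subunit shared by IL-12 and IL-23, at 63.2 in EM, 222 in CPV, 50.4 in case 1 and 39.3 in case 2. The pyoderma biopsies were close to each other and to EM, with CPV far above, and the log2 difference of −1.39 was −0.50 without CPV and −2.29 without EM. The edgeR log2 fold change was −1.66 (SE 0.895, adjusted p = 0.679). *IFNG*, the interferon of T and NK cells, was at 70.1 in case 1 and 87.8 in case 2, on either side of the 77.6 of CPV. The NK receptor *KLRD1* was at 55.9 in case 1 and 94.0 in case 2, within the span from EM at 46.8 to CPV at 97.6. The chemokine *CXCL10* and the type 1 interferons *IFNA7*, *IFNB1* and *IFNK* overlapped as well, the interferons at no more than 33 counts in any biopsy.

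*CX3CL1*, a membrane-bound chemokine of endothelium and epithelium, was at 224 in EM, 254 in CPV, 176 in case 1 and 127 in case 2, and was the only one of 4 paired macrophage, dendritic cell and regulation genes (26 listed) to lie below, with none above. Over the panel, 18.8% of targets lay above and 6.88% below. The median log2 difference of the 4 genes was −0.30 against 0.12 over all targets. The macrophage scavenger receptor *CD163*, at 597 and 735 in the pyoderma cases, and the costimulatory ligand *CD86*, at 676 and 869, lay between the lower EM and the higher CPV values. *IL10*, the remaining paired gene, was at 104 in EM, 135 in CPV, 139 in case 1 and 79.6 in case 2. For *IL10*, case 2 was the lowest under all 9 scalings and case 1 the highest under 4. *FOXP3*, the only paired T cell gene of 24, was at 9.86 in case 1 and 30.0 in case 2, the lowest and the highest of the 4 biopsies. EM was close to case 2, at 27.9, and case 2 was the highest under 3 of the 9 scalings. Case 1 did not exceed background for *FOXP3*.

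*DCT* (NM_001284466.1), an enzyme of melanin synthesis, was at 258 in EM, 54.3 in CPV, 34.0 in case 1 and 43.4 in case 2. *MC1R*, the melanocortin receptor of melanocytes, was at 83.8, 31.0, 25.2 and 22.7 in the same order. For both genes the EM lesion stood apart while CPV was 1.25-fold and 1.23-fold above the nearer pyoderma value, and without EM the log2 differences of −1.60 and −1.06 became −0.49 and −0.36, and without CPV −2.72 and −1.77. *TYR*, the first enzyme of melanin synthesis, overlapped, at 66.5 in EM, 47.7 in CPV, 49.3 in case 1 and 17.6 in case 2. The order of *DCT* and of *MC1R* held under 8 of the 9 scalings. Of the 3 paired melanocyte genes of 9 listed, 2 lay below and none above, against 6.88% below and 18.8% above over the panel. The median log2 difference of the list was −1.06 against 0.12 over all targets. The 3 genes summed to 408 in EM, 133 in CPV, 108 in case 1 and 83.7 in case 2, and the dogs were of different breeds, whose part was not tested.

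**Figure D2:**
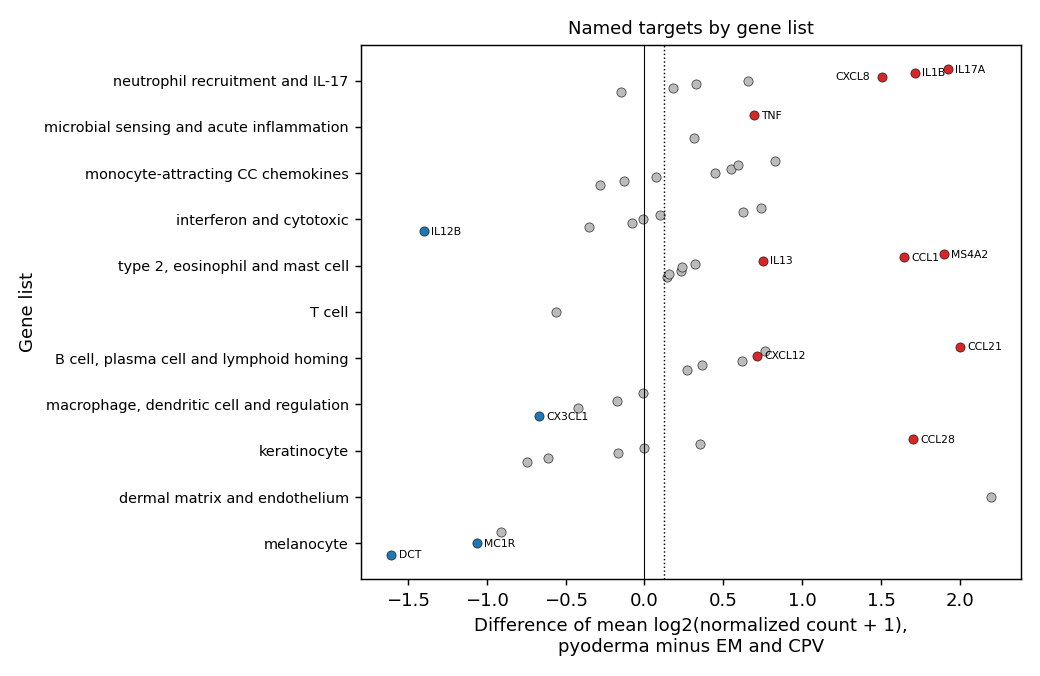
Difference of mean log2(normalized count + 1), pyoderma minus EM and CPV, for each target with a symbol in 11 gene lists. Red points had both pyoderma biopsies above both others, blue points had both below, grey points overlapped, and the dotted line is the median of all 160 targets (0.12). The red points lie in 5 of the lists and the blue points in 3 others.

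The quasi-likelihood test of edgeR, adjusted by Benjamini-Hochberg over the whole panel, called 1 of 160 targets (0.625%) at an adjusted p of 0.05. Before adjustment 12 targets had a p under 0.05, of which 10 were higher and 2 lower in pyoderma, and DESeq2 called 3 targets after and 21 before adjustment. The target that passed, XM_005628934.3, has no symbol here. It was at 34.5 normalized counts in EM, 49.9 in CPV, 193 in case 1 and 849 in case 2, so that both pyoderma values were at least 3.87-fold above CPV, the widest gap on the panel, while differing 4.40-fold from each other. Its log2 fold change was 3.63 (SE 0.844, edgeR adjusted p = 0.0389). The adjusted p ranged from 0.000165 with DESeq2 to 0.999 in edgeR without case 2, and the call was absent in edgeR with the panel total, TMM, the median of ratios, unscaled counts, a filter of 20 counts, scaling without *B2M* or without *RPL13A*, and without EM. In these settings the log2 fold change was between 3.38 and 3.90, and it was 2.19 without case 2. XM_542828.6, also without a symbol, was at 102 in EM, 63.2 in CPV, 1024 in case 1 and 252 in case 2, and here case 1 was the higher dog. Its edgeR log2 fold change was 2.95 (SE 0.791, adjusted p = 0.0554). It passed an adjusted p of 0.05 in DESeq2, and in edgeR with 3 groups, with scaling without *HPRT1*, with the positive control probes and without case 2.

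In the other direction, XM_538269.6 was at 256 in EM, 223 in CPV, 87.7 in case 1 and 70.3 in case 2. The values within each group differed by less than 1.5-fold and the groups were 2.54-fold apart at their nearest. The edgeR log2 fold change was −1.60 (SE 0.782, adjusted p = 0.611), and in DESeq2 it was among the 3 targets past an adjusted p of 0.05. XM_548191.4 was at 186 in EM, 236 in CPV, 116 in case 1 and 82.7 in case 2, with a gap of 1.60-fold.

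How far the 2 pyoderma biopsies agreed was described over all targets. For 29 targets the difference between the group means on the log2 scale exceeded the difference within each group, 24 higher and 5 lower in pyoderma. For 19 targets the 2 pyoderma biopsies were instead the 2 extremes of the 4, with case 2 highest and case 1 lowest for 8 and the reverse for 11. Among the 30 targets above, the pyoderma values were within 2-fold of each other for 21, and among the 11 below for 10. Case 2 was the higher pyoderma biopsy for 15 of the 30 above and the lower for 8 of the 11 below.

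Over the panel, 103 of 160 targets (64.4%) were within 2-fold between the 2 pyoderma biopsies, with a median absolute log2 difference of 0.69. This was near the figures for a pyoderma biopsy with another lesion, 107 for case 1 with EM, 105 for case 1 with CPV, 104 for case 2 with EM and 97 for case 2 with CPV. EM with CPV gave 83. Pearson's r of log2 normalized counts across targets, which are not independent replicates, was 0.93 for the pyoderma pair, 0.94 for case 1 with EM and with CPV, 0.93 for case 2 with EM, 0.90 for case 2 with CPV and 0.91 for EM with CPV. The pyoderma pair was thus not the closest of the 6 pairs on these measures. Over the 121 targets under 1000 normalized counts in all 4 biopsies, the pyoderma pair had the highest r of the 6. It was 0.87 against 0.77 to 0.86, with 81 targets within 2-fold against 65 to 79. The median absolute log2 difference there was lower for case 2 with CPV (0.61) than for the pyoderma pair (0.66). This cut leaves out the targets on which the pyoderma biopsies differed most, such as NM_001002987.2, XM_845089.5 and XM_005637400.1. Over the 129 targets above background in all 4 biopsies, the pyoderma pair had an r of 0.91 and 86 targets within 2-fold. Case 1 with CPV had 0.93 and 89 there.

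**Figure D3:**
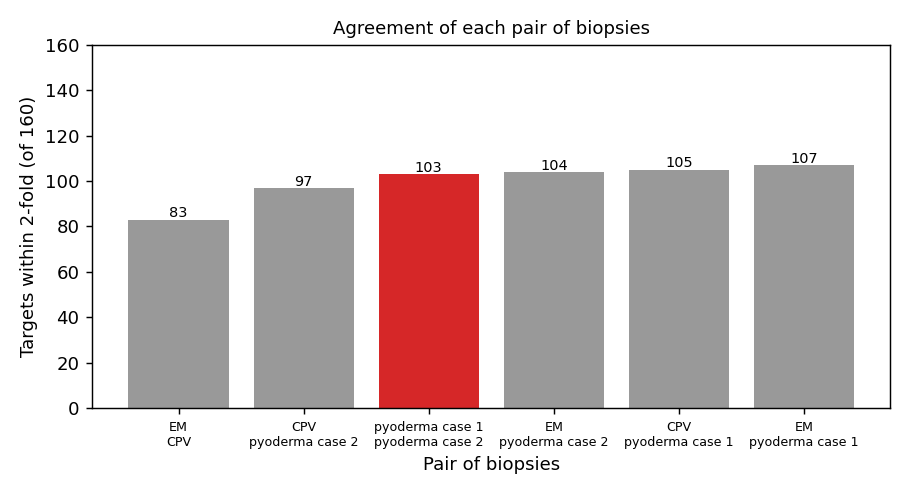
Number of the 160 targets whose normalized counts were within 2-fold between 2 biopsies, for each of the 6 pairs, with the pyoderma pair in red. The pyoderma pair (103) lies among the pairs of a pyoderma biopsy with another lesion (97 to 107), and EM with CPV is lowest (83).

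The pyoderma biopsies differed by more than 4-fold for 12 targets, 7 higher in case 2 and 5 higher in case 1. Over all targets this was the fewest of the 6 pairs, of which the others had 13 to 26. Over the 129 targets above background in all 4 biopsies it was not the fewest. There the pyoderma pair had 12, against 11 for case 2 with EM and for case 1 with CPV. Of the 12 targets, those with a symbol were *IL6*, at 6.24-fold, and *CD38*, at 4.16-fold, both higher in case 2. *CD38*, an ectoenzyme abundant on plasma cells and activated lymphocytes, was at 103 in EM, 127 in CPV, 156 in case 1 and 648 in case 2. Case 1 was thus 1.22-fold above CPV and case 2 stood apart, with the order held under 5 of the 9 scalings. The T cell ligand *CD40LG*, at 18.6 in case 1 and 68.2 in case 2, was also higher in case 2, by 3.66-fold.

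The widest difference was NM_001002987.2, without a symbol here, at 197 in EM, 58.8 in CPV, 58.1 in case 1 and 5721 in case 2. It was 98.5-fold higher in case 2 than in case 1, whereas case 1 and CPV were level, with 53 counts each before scaling. The edgeR log2 fold change of this target, 4.49 (SE 1.17, adjusted p = 0.0554), came from 1 dog, since the log2 difference of 2.42 was −0.88 without case 2. It passed an adjusted p of 0.05 in edgeR with scaling without *HPRT1*, with the positive control probes, with 3 groups, and when case 1, EM or CPV was left out. XM_849371.1 was 5.09-fold higher in case 2, at 83.7 against 16.4. In case 1, XM_845089.5 reached 1607 against 92.0 in case 2, 90.3 in EM and 181 in CPV, which made it 17.5-fold higher in case 1. XM_005637400.1 was 12.3-fold higher in case 1, at 647 against 52.7, and highest in CPV at 2073.

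**Figure D4:**
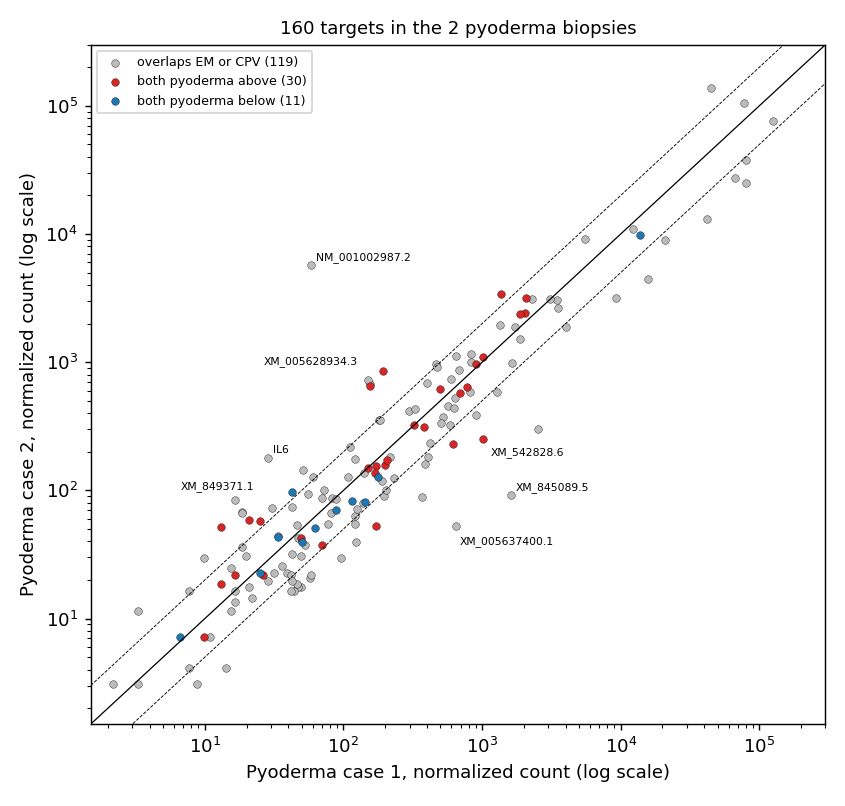
Normalized counts of the 160 targets in pyoderma case 1 (horizontal) and case 2 (vertical), both on log scales, coloured by their position relative to EM and CPV. The solid line marks equal values and the dashed lines 2-fold differences. NM_001002987.2 lies far above the line and XM_845089.5 and XM_005637400.1 far below it.

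The 2 pyoderma biopsies also differed in tissue genes. *COL1A1*, the main collagen of the dermis, was at 69257 in EM, 4310 in CPV, 44948 in case 1 and 138520 in case 2. *KRT14*, a keratin of basal keratinocytes, was at 17870 in EM, 86770 in CPV, 42258 in case 1 and 13027 in case 2, and *KRT5*, its partner, was 3.19-fold higher in case 1. *KLK7*, a protease of the outer epidermis, was 2.96-fold higher in case 1. The ratio of *COL1A1* to *KRT14* counts was 1.06 in case 1 and 10.6 in case 2, with 3.88 in EM and 0.0497 in CPV. The 6 paired keratinocyte genes summed to 111355 normalized counts in EM, 282945 in CPV, 211285 in case 1 and 79397 in case 2. Case 2 therefore had the most *COL1A1*, the only dermal gene paired of 14 listed, and the lowest keratinocyte sum of the 4 biopsies. It was the highest biopsy for 43 of the 160 targets, among them *CXCL8*, *IL17A*, *CD38* and *CXCL12*. Case 1 was the highest for 40, among them *IL1B*, *TNF*, *CCL21* and *CCL28*. The part of tissue composition in those values was not tested.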

How the data were processed

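The authors isolated RNA from curls of archival, paraffin-embedded skin, hybridized it to a custom NanoString nCounter panel and deposited 1 file of raw counts per dog, with no normalization. Each held 160 targets, 6 positive and 8 negative control probes. Targets are RefSeq transcripts, and 72 were given a symbol, versions ignored, from the RefSeq genes of the UU_Cfam_GSD_1.0 assembly, which served for names only. Counts were scaled by *B2M*, *HPRT1* and *RPL13A* (the authors name 4 housekeeping genes, of which these 3 were paired), and log2 values had a pseudocount of 1.

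The 2 pyoderma biopsies were compared with EM and CPV as 1 group by the quasi-likelihood test of edgeR 4.0.16 in R 4.3.3 over all 160 targets, with no filter and Benjamini-Hochberg adjustment. Alternatives were DESeq2 1.42.0, 8 other scalings, a filter of 20 counts, pseudocounts of 0.5 and 10, subtraction of background, 3 groups and each biopsy left out. Other steps ran in Python 3.11.15 with scipy 1.17.1, pandas 2.3.3, numpy 2.4.6 and matplotlib 3.10.9.

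The comparison, the 12 gene lists and the rule for named targets were chosen with earlier results of these data known. Named were the 10 targets with the largest difference in each direction among those separate between the groups and counted at least 50 times in a dog, targets past the edgeR threshold, the 5 largest ratios in each direction between the pyoderma dogs, and the paired members of the neutrophil, microbial, interferon, monocyte, housekeeping and tissue lists, with at most 2 targets without a symbol per direction. *CCL1*, *CD38*, *CXCL12*, *IL13*, *CCL19*, *MS4A1*, *KIT*, *CD163*, *CD86*, *IL10*, *FOXP3*, *CD40LG* and the other separate targets with a symbol were named after their values were seen. 1 target that entered every count and fit is not reported here. Intervals are 95% Poisson limits.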

Additional observations from a re-analysis of the deposited data

How the results depend on the processing

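With 2 biopsies a group, each of 1 dog, the spread between dogs limits every comparison, and counts near background limit *IL17A*, *CCL1* and *FOXP3*. The edgeR count of 1 target past an adjusted p of 0.05 became 0 with scaling without *B2M* (12 at an unadjusted p under 0.05) or without *RPL13A* (7), the panel total (6), the median of ratios (9), TMM (7), the counts as deposited (4) and a filter of 20 counts (13). It became 4 without *HPRT1* in the scaling and with EM, CPV and pyoderma as 3 groups, and 3 with the positive control probes and with DESeq2. Leaving out 1 biopsy at a time gave 1 to 3 targets, the lone biopsy being assumed to vary like the other group. It gave 1 without EM, 2 without CPV, 3 without case 1 and 2 without case 2. XM_005628934.3 was among them without case 1 or CPV, and not without case 2 or EM. The 30 targets above became 17 with the positive control probes, and 55 to 70 when 1 biopsy was left out, since fewer values had to be ordered. The 11 below became 21 with the median of ratios, 17 with the counts as deposited, 21 with the positive control probes, 26 with TMM and 25 to 48 when 1 biopsy was left out. The agreement of the pyoderma pair moved by less than 1.5 times under each alternative run. No paired analysis was possible because the case numbers mark different dogs within each diagnosis.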

Other observations

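Of the 17 targets whose symbol was in none of the 12 lists, 5 lay above in both pyoderma biopsies, against 18.8% of all targets, and the median log2 difference of all 17 was 0.11. *HSD11B1*, the enzyme that turns inactive cortisone into cortisol inside cells, was at 232 normalized counts in EM, 204 in CPV, 378 in case 1 and 310 in case 2, and its order held under all 9 scalings. *SELPLG*, the ligand by which leukocytes roll on selectins, was at 307 in EM, 404 in CPV, 500 in case 1 and 613 in case 2, an order held under 7 of the 9. *CD38* was the third with all 4 values above background. The other 2 above were close to background, *OXTR* with 10 to 21 counts and *FMO1* with 5 to 9 counts, and the latter exceeded background in no biopsy. None of these 5 passed an adjusted p of 0.05 in edgeR.

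The genes *PPARG*, a regulator of sebaceous and fat cells, and *CYP1B1*, an oxidizing enzyme, overlapped. *PPARG* was at 601 in EM, 146 in CPV, 405 in case 1 and 182 in case 2, and *CYP1B1* at 1266, 508, 650 and 1125 in the same order, so that neither placed the pyoderma dogs together.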
